A study of Mus musculus with 12 samples.

Results

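The nuclear genes for the subunits of oxidative phosphorylation (OXPHOS) were examined in livers of mice lacking Marchf6, an E3 ubiquitin ligase of the endoplasmic reticulum membrane, in hepatocytes. Members were protein-coding rows of the liver count table whose symbols name subunits of complexes I to V (Ndufa, Ndufb, Ndufc, Ndufs and Ndufv genes without the Ndufaf assembly factors, Sdha to Sdhd, the Uqcr genes and Cyc1, the Cox4 to Cox8 genes, and Atp5 genes). This gave 86 of the 54232 rows, of which 37 were counted in complex I, 4 in complex II, 9 in complex III, 18 in complex IV and 18 in complex V. Complexes were assigned by symbol, so Ndufa4, now placed in complex IV, and its paralog Ndufa4l2 are counted in complex I throughout. The mice were 10-week-old male C57Bl/6J littermates on chow that had been fasted for 4 h. Both groups carried Marchf6 alleles with loxP sites, made by gene targeting in C57BL/6 embryonic stem cells (Marchf6 fl/fl), and differed in AlbuminCre: 6 mice without it are called WT and 6 mice with it are called Marchf6 LKO. Cre was driven by the albumin promoter, which directs the deletion to hepatocytes, and the other cells of the liver keep the gene. The deleted exon is numbered 2 in the series design and 3 elsewhere in the study. Each mouse gave 1 polyadenylated RNA library, so n is the number of mice.

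Oxidative phosphorylation is carried out in the inner mitochondrial membrane. Complex I takes electrons from NADH and complex II takes them from succinate; complex III passes them to cytochrome c and complex IV to oxygen. Complex V, the ATP synthase, uses the resulting proton gradient to make ATP. Some core subunits of complexes I, III, IV and V are encoded in the mitochondrial genome, whereas all other subunits are encoded in the nucleus and imported. Hepatocytes are rich in mitochondria and use this system to oxidise fatty acids, among other fuels.

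No nuclear subunit mRNA passed the test between WT and Marchf6 LKO liver. Of the 86 members, 80 had enough reads to be tested (over 2 reads in 6 or more livers), and 0 of these 80 had an adjusted p under 0.05 with edgeR's quasi-likelihood test, where 0.428% of all genes tested did (75 of 17509). limma voom and DESeq2 also called 0 members. Below that threshold the members leaned to one side: 14 of 80 (17.5%) had an unadjusted p under 0.05 and were higher in LKO liver, against 6.33% of all genes tested, and 0 were lower, against 5.36%. The 14 include Cox6b2, which met the read filter only with the LKO livers counted. Among the 78 members with at least 10 reads in every liver, 13 (16.7%) were higher with such a p, against 7.56% of all genes. In that fit 0 were lower, against 5.98%. A log2 fold change above 0 (LKO over WT) was found for 61 of 80 members (76.2%) and for 50.0% of all genes; scaled to total counts without TMM factors, it was 74 of 80 members (92.5%) and 62.2% of all genes. The median log2 fold change was 0.050 for the members and 0.00015 for all genes. With trends in exon length and GC content removed from each library, these values were smaller: 43 of 80 members (53.8%) were above 0, against 43.9% of all genes, and the medians were 0.0087 and -0.03. In that fit 8 members (10%) had an unadjusted p under 0.05 and were higher, against 4.9% of all genes, and 1 was lower, against 7% of all genes. The count of 14 depended on single livers. It was 8 (10%) without WT replicate 1 or without LKO replicate 6. In these 2 fits 5.69% and 6.16% of all genes had such a p and were higher, and 5.03% and 4.94% were lower. It was 9 without WT replicate 4 (1 of them lower in LKO), 5 or 6. Of all genes, 5.58%, 5.12% and 6.26% were then higher and 4.92%, 4.92% and 5.69% lower. It was 24 (30%) without WT replicate 3, when 6.84% of all genes had such a p and were higher and 5.8% were lower.

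The median standard error of the log2 fold change was 0.066 for the members and 0.15 for all genes. For 56 of the 80 members the whole 95% interval lay within 0.25 log2 units of 0, which is a 1.19-fold difference in either direction. Above a mean of 2 CPM (read counts scaled to the size of each library, with TMM normalisation), the highest upper bound of any member was 0.47, that of Ndufa12, and the lowest lower bound was -0.37, that of Atp5g1.

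**Figure D1:**
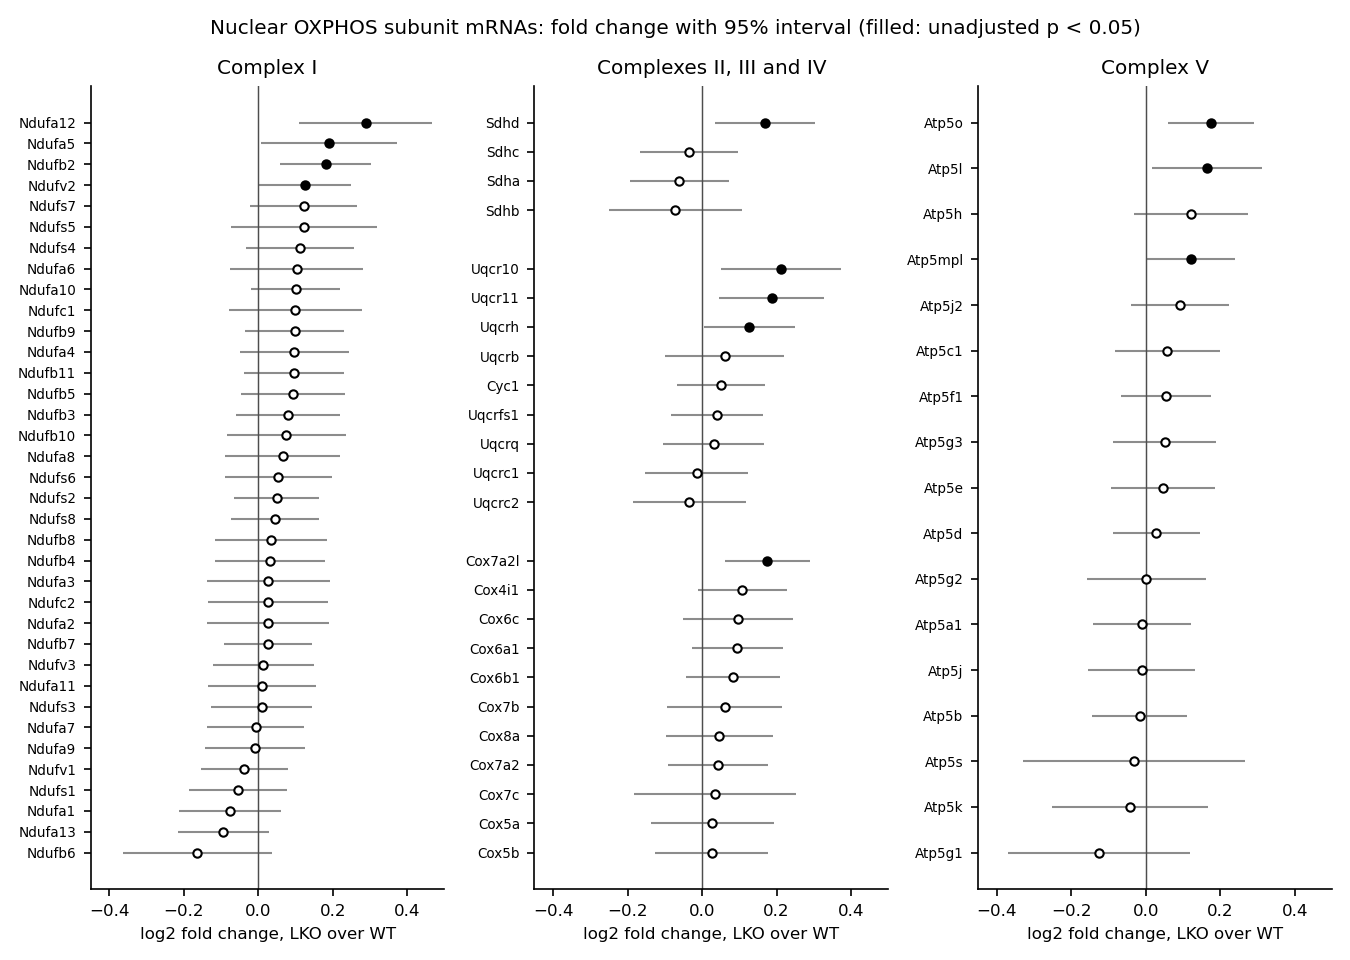
Log2 fold changes (x axis, LKO over WT) with 95% intervals for the 77 tested members above 2 CPM, by complex, with members ordered by fold change. Filled points have an unadjusted p under 0.05; none passes adjustment over all genes, and every filled point lies to the right of 0.

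Libraries held 14860414 to 19013181 counts in WT and 15242214 to 22111926 in LKO, and the members took 0.867 to 0.967% and 0.867 to 1.00% of them. Genes of the mitochondrial genome took 5.84 to 6.15% in WT and 6.19 to 6.73% in LKO. These are shares of raw counts, without TMM factors. The shares count all genes of the mitochondrial genome. For the 13 mitochondrially encoded subunits alone, a smaller set, the groups overlapped in the summed level with TMM factors. It was 54364 to 60173 CPM in WT and 54922 to 63127 CPM in LKO. The shares and this sum differ in both genes and scaling, so they do not show what TMM factors change. The counts of the targeted gene itself, summed over all its exons and listed as March6, overlapped between groups (226 to 247 CPM in WT, 204 to 249 CPM in LKO; log2 fold change -0.09, SE 0.060, adjusted p = 0.585). These counts include the exons that remain, so they do not check the deletion. Summed hepatocyte markers ranged from 107960 to 130852 CPM in WT and from 99982 to 110158 CPM in LKO. Albumin (Alb) made up most of these sums, with means of 76045 CPM in WT and 66947 CPM in LKO.

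Promoters of several members were printed because the classical regulators of these genes are known from sequence elements near the start site. Nuclear respiratory factor 1 (NRF1), the ETS factor GABPA (also called NRF2) and YY1 are the textbook examples. RefSeq promoters (GRCm38.p6, 250 bases before to 50 after the start) were held for 68 of the 86 genes. Sdhd, Uqcr11 and Atp5o are shown because they were among the members with the smallest p in complexes II, III and V, and Ndufs6 because its promoter held both an NRF1 and a YY1 element. Every promoter shown holds a match to a motif of these 3 factors. Those of Ndufa12 and Cox7a2l, with the smallest p in complexes I and IV, hold none and are not shown. All 4 genes shown lie on the minus strand, and the sequences are given 5′ to 3′ along the gene. Capitals mark matches to the NRF1 consensus, the ETS motif CCGGAAG or the YY1 motif AAGATGGC on either strand. The windows are chr9:50603800-50604099 for Sdhd, chr10:80406772-80407071 for Uqcr11, chr16:91931581-91931880 for Atp5o and chr13:73328433-73328732 for Ndufs6.
Sdhd: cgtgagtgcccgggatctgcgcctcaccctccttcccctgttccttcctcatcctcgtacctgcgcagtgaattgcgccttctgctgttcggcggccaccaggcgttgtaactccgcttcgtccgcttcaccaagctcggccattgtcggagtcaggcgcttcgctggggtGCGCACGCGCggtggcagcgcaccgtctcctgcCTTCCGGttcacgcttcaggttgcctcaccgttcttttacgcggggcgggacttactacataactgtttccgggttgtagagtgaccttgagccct
Uqcr11: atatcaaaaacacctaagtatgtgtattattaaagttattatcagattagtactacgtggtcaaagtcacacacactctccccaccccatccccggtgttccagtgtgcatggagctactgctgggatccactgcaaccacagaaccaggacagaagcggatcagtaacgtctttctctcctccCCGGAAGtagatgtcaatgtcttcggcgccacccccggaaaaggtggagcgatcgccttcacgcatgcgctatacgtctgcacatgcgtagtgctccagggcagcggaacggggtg
Atp5o: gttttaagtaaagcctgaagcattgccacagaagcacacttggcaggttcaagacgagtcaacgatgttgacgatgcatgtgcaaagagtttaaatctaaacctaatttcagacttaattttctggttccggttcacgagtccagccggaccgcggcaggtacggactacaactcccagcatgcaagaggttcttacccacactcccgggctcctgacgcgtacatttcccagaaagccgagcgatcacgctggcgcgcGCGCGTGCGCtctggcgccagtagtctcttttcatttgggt
Ndufs6: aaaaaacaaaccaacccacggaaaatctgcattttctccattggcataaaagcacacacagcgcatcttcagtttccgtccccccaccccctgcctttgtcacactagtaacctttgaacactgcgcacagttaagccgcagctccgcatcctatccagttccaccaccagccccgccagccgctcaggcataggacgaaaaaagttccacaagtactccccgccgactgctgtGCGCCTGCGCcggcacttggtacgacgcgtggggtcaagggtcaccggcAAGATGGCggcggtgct

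The NRF1 motif was found in 17 of 68 member genes (25.0%) and in 7.17% of the 17491 genes with a promoter. The ETS motif stood in 16 (23.5%) against 12.9%, and the YY1 motif in 10 (14.7%) against 3.57%. At least 1 of the 3 was present in 37 genes and at least 2 in 6. For the general promoter elements GGGGCGGGG (SP/KLF) and CCAAT the shares were 17.6% against 17.3% and 44.1% against 42.3%, and the estrogen-related receptor motif TCAAGGTCA was found in 2 genes (2.94% against 0.377%). Of the 10 YY1 matches, 8 lay 22 to 38 bases after the start site. The YY1 letters contain ATG, so that such a match can also hold the start codon. Among the 13 genes with a promoter and an unadjusted p under 0.05, NRF1 matches were found in 3, ETS matches in 4 and YY1 matches in 0, and among the other 53 tested genes in 14, 12 and 10. A match is a run of letters, not a site shown to be bound.

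**Figure D2:**
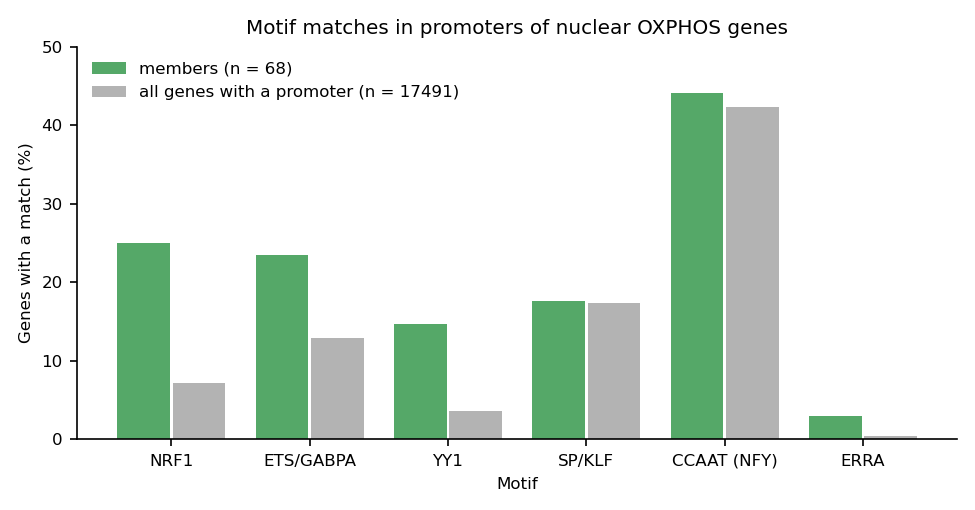
Share of genes (y axis, percent) with at least 1 match to each of 6 motifs (x axis) in the promoter, for 68 member genes (green) and all 17491 genes (grey). NRF1, ETS and YY1 matches are more frequent among the members, and the SP/KLF and CCAAT bars are nearly level.

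In WT liver the members covered a wide range of levels. Compared per kilobase of the principal transcript, the median was 87.8 CPM per kb and the highest level was that of Atp5b, the catalytic beta subunit of ATP synthase, at 559 CPM per kb. The highest of complexes IV and II were Cox4i1 (349 CPM per kb) and Sdha (200 CPM per kb). Among genes with a complex I name Ndufa4 was highest (285 CPM per kb), but it is now placed in complex IV, and Ndufa6 followed (175 CPM per kb). In complex III the order depended on the transcript: Uqcrh was at 186 CPM per kb, and Uqcrq at 116 CPM per kb with its longest and 437 CPM per kb with its shortest principal transcript. The medians by complex were 63.8 CPM per kb for complex I, 138 for complex II, 125 for complex III, 114 for complex IV and 116 for complex V. For 7 members, among them Ndufb2, Uqcrq and Atp5g1, principal transcripts of very different length are annotated, and the level changed more than 1.5-fold with the choice. The level of Ndufb2 was 4.45 CPM per kb with the longest of them. Of the 86 members, 18 share a stretch of at least 75 bases at 97% identity or more with another gene, in most cases a pseudogene. Among standard subunits, the 13 with over 30% of the transcript covered by such copies had a median of 49.6 CPM per kb, and the other 61 had 92.3 CPM per kb. How reads were shared between a member and its copies was not tested.

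**Figure D3:**
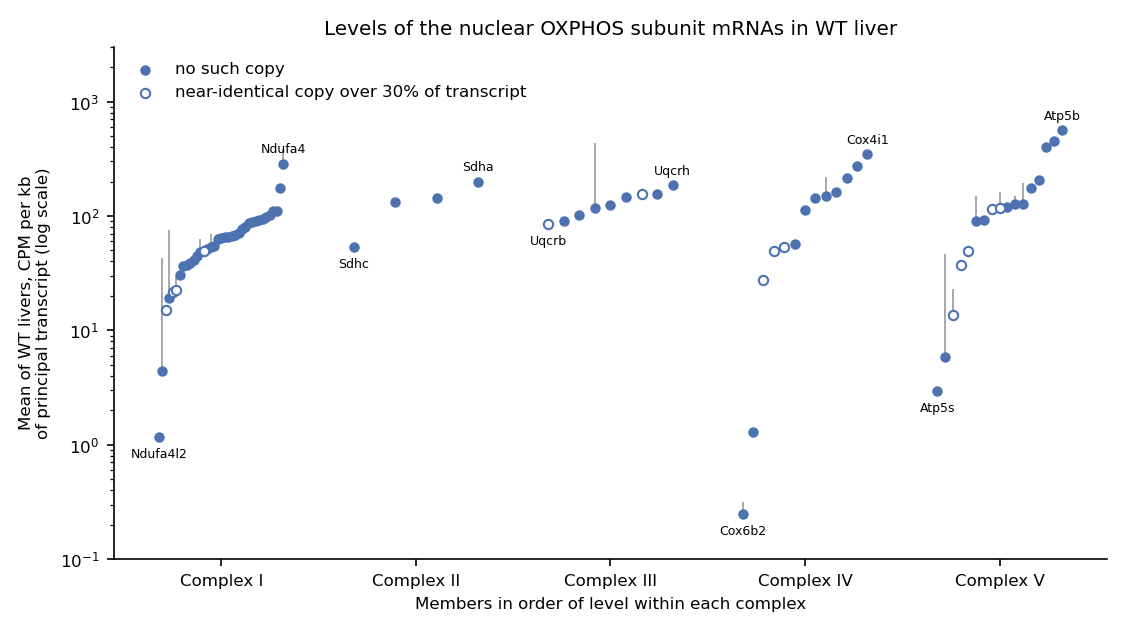
Mean level in the 6 WT livers (y axis, CPM per kb of the longest principal transcript, log scale) of the 80 tested members, in order of level within each complex. Open points have near-identical copies over more than 30% of the transcript, and a grey line runs up to the level computed with the shortest principal transcript. Atp5b is highest and the testis isoform Cox6b2 lowest.

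For complex IV and for the c subunit of ATP synthase several genes encode alternative forms of 1 subunit, and the liver forms dominated. Of the summed level per kb in WT liver, Cox4i1 held 99.98%, Cox6a1 99.98%, Cox8a 99.96% and Ndufa4 99.6%. The alternatives Cox4i2, a lung form, and Cox6a2 and Cox8b, the heart and muscle forms, reached at most 3 reads in any liver, and Cox7b2 and Cox8c had 0 reads. A second Ensembl entry named Atp5o, lying within exons of other genes, also had 0 reads. These 6 rows were not tested. Among the c subunit genes Atp5g3 held 95.8%, or 86.9% when the shortest principal transcripts were used.

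Complex I had 37 tested members, of which 29 had a log2 fold change above 0, and the median was 0.050, or 0.00057 with trends in gene length and GC content removed. Ndufa12 (chr10:94198720-94221443), an accessory subunit of the peripheral arm, had the smallest p. It ranged from 14.9 to 19.6 CPM in WT (median 16.4) and from 17.1 to 21.8 CPM in LKO (median 21.1). The groups overlapped, through LKO replicate 2, the other 5 LKO livers lying above every WT liver. The means were 16.8 ± 1.81 and 20.5 ± 1.76 CPM (SD, n = 6), a log2 fold change of 0.29 (SE 0.084, unadjusted p = 0.00366, adjusted p = 0.168). A processed pseudogene matches 36.2% of its transcript. Ndufb2 (chr6:39592574-39603382), an accessory subunit of the membrane arm, ranged from 18.8 to 20.1 CPM in WT (median 19.6) and from 20.8 to 23.5 CPM in LKO (median 22.04). Every LKO liver was higher than every WT liver, with a log2 fold change of 0.18 (SE 0.057, unadjusted p = 0.00629, adjusted p = 0.212). This held for 0.748% of all genes tested in the same direction and for 0.554% in the other.

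Ndufa5, another accessory subunit, and Ndufv2, an iron-sulfur core subunit next to the NADH site, were the other members of complex I with an unadjusted p under 0.05 (log2 fold changes 0.19 and 0.13, adjusted p = 0.402 and 0.414). The other core subunits showed no such difference. Ndufs1, the largest subunit and carrier of several iron-sulfur clusters, had a median of 115 CPM in WT (108 to 133) and 114 CPM in LKO (107 to 123). Its log2 fold change was -0.05 (95% interval -0.19 to 0.08, adjusted p = 0.786). Ndufv1, which binds NADH, had 153 CPM in WT (147 to 163) and 150 CPM in LKO (142 to 158), with a log2 fold change of -0.04 (-0.15 to 0.08, adjusted p = 0.847). Both intervals lie within 0.25 log2 units of 0, and with total counts without TMM factors both values were above 0 (0.0021 and 0.018). The lowest fold change of all members was that of Ndufb6, a membrane arm subunit, at -0.16 (SE 0.094, unadjusted p = 0.101), and 39.0% of its exon bases overlap another gene.

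**Figure D4:**
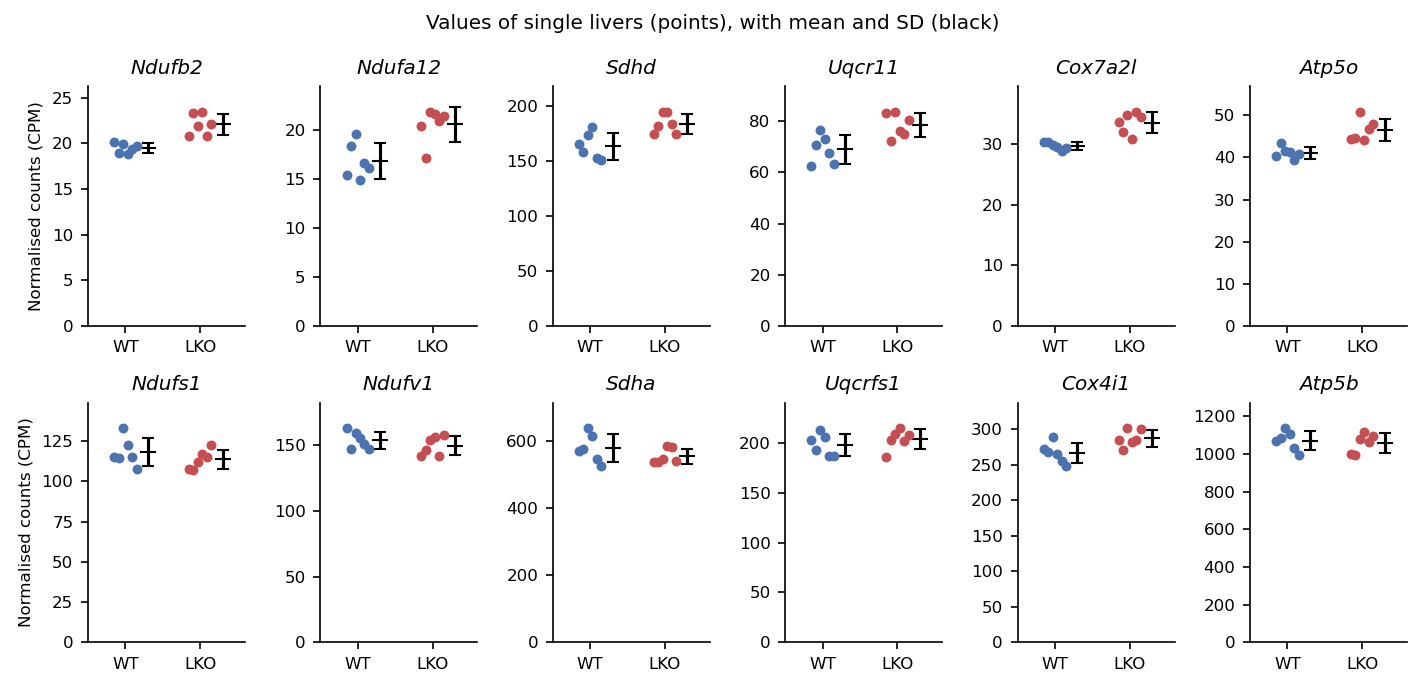
Normalised counts (y axis, CPM, from 0) of 12 members in single livers, WT in blue and LKO in red, with the group mean and SD in black. Ndufb2, Cox7a2l and Atp5o show no overlap between groups, and the core subunits in the lower row overlap.

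Complex II was the only complex whose median log2 fold change was below 0 (-0.05). It was -0.080 with trends in gene length and GC content removed, and -0.076 to -0.022 with 1 liver left out at a time. With total counts without TMM factors it was 0.0084, when the median of all genes was 0.056. Complex II has 4 members, and they were not alike. Sdhd (chr9:50596357-50603812), a small membrane anchor, ranged from 151 to 181 CPM in WT (median 162) and from 175 to 195 CPM in LKO (median 183). WT replicate 4 overlapped with the LKO livers, and all 6 LKO livers lay above the WT mean. The log2 fold change was 0.17 (SE 0.062, unadjusted p = 0.0165, adjusted p = 0.294). Sdha, the flavoprotein that oxidises succinate, had 573 CPM in WT (528 to 639) and 544 CPM in LKO (537 to 584), with a log2 fold change of -0.06 (-0.19 to 0.07, adjusted p = 0.755). Sdhb, the iron-sulfur subunit, ranged from 147 to 186 CPM in WT (median 160) and from 132 to 174 CPM in LKO (median 159), with a log2 fold change of -0.07 (adjusted p = 0.797). Sdhc, the other anchor, was at -0.04.

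In complex III, 7 of 9 members had a log2 fold change above 0, and the 3 with an unadjusted p under 0.05 were small accessory subunits. Uqcr11 (chr10:80402997-80406830) ranged from 62.4 to 76.7 CPM in WT (median 69.2) and from 72.4 to 83.7 CPM in LKO (median 78.2), with a log2 fold change of 0.19 (SE 0.066, unadjusted p = 0.0125, adjusted p = 0.266). Uqcr10 (chr11:4701973-4704342) ranged from 57.7 to 79.0 CPM in WT (median 67.01) and from 71.7 to 82.7 CPM in LKO (median 79.6), with a log2 fold change of 0.21 (SE 0.075, unadjusted p = 0.0130, adjusted p = 0.269). In both genes the groups overlapped, and WT replicate 3 was the highest WT liver. Uqcrh, the hinge protein that helps cytochrome c to dock, had a log2 fold change of 0.13 (adjusted p = 0.404). The catalytic subunits were close to 0. Uqcrfs1, the Rieske iron-sulfur protein, had 198 CPM in WT (186 to 213) and 205 CPM in LKO (186 to 214), and Cyc1, cytochrome c1, had 151 CPM in WT (146 to 163) and 158 CPM in LKO (151 to 170). Their log2 fold changes were 0.04 and 0.05 (adjusted p = 0.841 and 0.775).

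All 13 tested members of complex IV had a log2 fold change above 0, and the median was 0.083, the highest of the 5 complexes. For the 10 general subunits alone it was 0.054, with a range from 0.03 to 0.11 and 0 unadjusted p under 0.05. Cox4i1, the largest nuclear subunit, had 267 CPM in WT (248 to 289) and 285 CPM in LKO (271 to 302), with a log2 fold change of 0.11 (-0.01 to 0.23, adjusted p = 0.480). Cox5a, a subunit on the matrix side, had 34.8 CPM in WT (33.4 to 42.7) and 38.6 CPM in LKO (32.6 to 40.1), with a log2 fold change of 0.03 (adjusted p = 0.934). The 3 members with an unadjusted p under 0.05 were the 3 tested isoforms or paralogs.

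Cox7a2l (chr17:83501918-83517330), also known as SCAF1 and linked to supercomplexes of complexes III and IV, ranged from 28.8 to 30.3 CPM in WT (median 29.7) and from 30.8 to 35.3 CPM in LKO (median 34.1). The groups did not overlap, and the WT livers lay close together. The log2 fold change was 0.18 (SE 0.053, unadjusted p = 0.00499, adjusted p = 0.192). Cox7a1 (chr7:30184144-30186078), the heart and muscle form, had 4 to 12 reads in WT (0.235 to 0.772 CPM) and 9 to 27 reads in LKO (0.603 to 1.26 CPM). Its groups overlapped, and its log2 fold change was 0.88 (SE 0.29, unadjusted p = 0.00880, adjusted p = 0.235). It made up 0.738% of the summed Cox7a level per kb in WT and 1.29% in LKO. Cox6b2, the testis form, had 65 reads in all 12 livers, with 0 reads in 3 WT livers, and a log2 fold change of 1.56 (SE 0.70, adjusted p = 0.404). Its reads were 0, 0, 5, 0, 2 and 7 in WT and 7, 6, 4, 2, 20 and 12 in LKO. It met the read filter only with the LKO livers counted, so its direction goes with the filter. It is among the 13 of complex IV above 0. Cox7a1 and Cox6b2 are both close to the limit of counting. Of 6 muscle genes, none had enough reads to be tested, and their summed level was 0 to 0.207 CPM in WT and 0 to 0.0569 CPM in LKO.

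In complex V 11 of 17 tested members had a log2 fold change above 0, with a median of 0.046. It was -0.0016 with trends in gene length and GC content removed, 0.015 without WT replicate 6 and 0.066 without LKO replicate 2. Atp5o (chr16:91925214-91931687), the OSCP subunit at the top of the peripheral stalk, ranged from 39.4 to 43.5 CPM in WT (median 41.0) and from 44.2 to 50.8 CPM in LKO (median 45.7). The groups did not overlap, and the log2 fold change was 0.18 (SE 0.055, unadjusted p = 0.00597, adjusted p = 0.207). Its count is uncertain, since 47.9% of its exon bases overlap other annotated genes and 76.7% of its transcript matches a pseudogene. Atp5l (chr9:44912557-44920742), subunit g of the membrane part, ranged from 18.7 to 21.6 CPM in WT (median 19.98) and from 20.1 to 26.0 CPM in LKO (median 22.4), with overlap and a log2 fold change of 0.16 (SE 0.069, unadjusted p = 0.0314, adjusted p = 0.363). It has 4 pseudogene copies. Atp5mpl, a small membrane subunit, had a log2 fold change of 0.12 (adjusted p = 0.421).

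The catalytic head of ATP synthase lay close to 0. Atp5b had 1076 CPM in WT (996 to 1137) and 1073 CPM in LKO (993 to 1119), with a log2 fold change of -0.02 (-0.14 to 0.11, adjusted p = 0.952). Atp5a1, the alpha subunit, had 999 CPM in WT (912 to 1101) and 994 CPM in LKO (929 to 1048), with a log2 fold change of -0.01 (-0.14 to 0.12, adjusted p = 0.974). With total counts without TMM factors these were 0.040 and 0.048. The 5 subunits of F1, the head with its central stalk, had a median of 0.028. It was 0.088 for the 4 tested subunits of the peripheral stalk and 0.11 for the 4 accessory subunits of the membrane part. Atp5s, a coupling factor, was at -0.03.

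Livers of the same genotype differed in the level of the members. The members' median deviation from the mean of all 12 livers ran from -0.14 in WT replicate 6 to 0.14 in WT replicate 3, and from -0.07 in LKO replicate 2 to 0.12 in LKO replicate 6, so the groups overlapped. WT replicate 3 was the highest WT liver for 65 of the 80 members (81.2%), and for 18.8% of all genes tested. WT replicate 6 was the lowest WT liver for 53 members (66.2%, against 17.3% of all genes). In LKO, replicate 2 was the lowest for 44 members (55%, against 16.4%) and replicate 6 the highest for 35 (43.8%, against 15.3%). WT replicate 3 stood highest and replicate 6 lowest among WT livers in the median of each of the 5 complexes. Other livers did not rank alike in every complex: WT replicate 4 was at 0.098 for complex II and -0.08 for complex IV, and LKO replicate 1 at -0.07 and 0.082. Without WT replicate 3 the members' median log2 fold change was 0.081 and without WT replicate 6 it was 0.029.

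**Figure D5:**
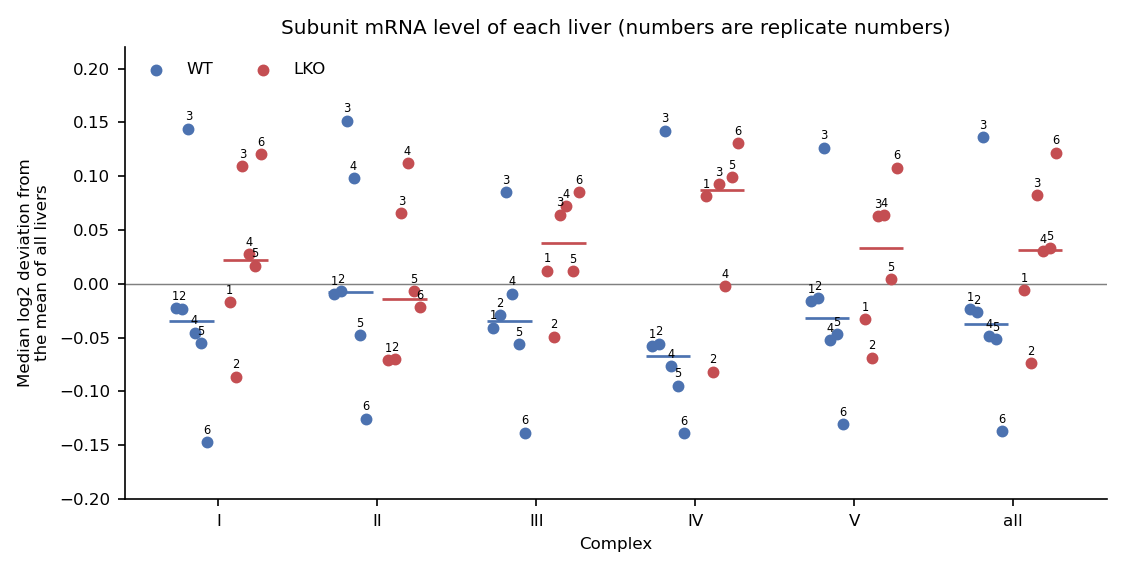
Median log2 deviation of the members from the mean of the 12 livers (y axis), for each complex and for all 80 tested members (x axis), with 1 point per liver (WT blue, LKO red), its replicate number above it and the group median as a line. WT replicate 3 is the highest and WT replicate 6 the lowest WT point in every column, and the groups overlap in each.

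The members are shorter than most genes tested, with a median exon length of 1631 bases against 3637. Among all genes tested, the median change on the log2 scale was 0.015 up to 1000 exon bases, 0.035 from 1000 to 2000, 0.0097 from 2000 to 4000 and -0.01 above 4000, so that it did not fall steadily with length. Members of the same classes had medians of 0.063 (n = 18), 0.068 (n = 32), 0.021 (n = 20) and 0.0052 (n = 10). Differences between the classes were not tested. In the fit with trends in length and GC content removed, the groups of 1 member did not overlap, against 224 of all 17509 genes. The members' median then exceeded that of all genes by 0.036 rather than 0.050. These length classes were chosen after the values had been seen.

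The partners of the nuclear subunits were read from the same fit. Of the 13 subunits encoded in the mitochondrial genome, 8 had a log2 fold change above 0, and 4 had an unadjusted p under 0.05 and were higher. The median was 0.087, or 0.0028 with trends in gene length and GC content removed. Besides mt-Nd1, the 4 were mt-Nd3, mt-Co2 and mt-Co3, which had few reads. Their means were 1.91, 6.49 and 10.2 CPM in WT and 4.67, 8.21 and 11.7 CPM in LKO. For mt-Co1 the means were 12613 and 12969 CPM. Why some of these levels were so low was not tested. The smallest p was that of mt-Nd1, a membrane core subunit of complex I (log2 fold change 0.33, SE 0.071, adjusted p = 0.0623). Assembly factors, which build the complexes without staying in them, were read as separate lists. Of the 15 complex I assembly factors 4 had a log2 fold change above 0 and 0 an unadjusted p under 0.05, with a median of -0.05 and with Ndufaf1 the smallest p (log2 fold change -0.12, adjusted p = 0.429). Of 30 tested assembly factors of the other complexes 18 were above 0, with a median of 0.022, and Taco1, a translational activator of mt-Co1, had the smallest p (-0.24, adjusted p = 0.288).

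Upstream of the chain, 10 of 13 TCA cycle enzymes were above 0 (median 0.040), and citrate synthase (Cs) had the smallest p (log2 fold change 0.25, adjusted p = 0.192). The 17 genes of ubiquinone synthesis and electron carriers had 11 above 0 (median 0.023), with Coq10a first (0.14, adjusted p = 0.477). All 8 carrier, uncoupling and inhibitor genes were above 0, with a median of 0.15. Ucp2, an uncoupling protein family member known from macrophages, had the smallest p among them (0.33, adjusted p = 0.305). Of 14 regulators of mitochondrial biogenesis 4 were above 0 (median -0.11), and Ppara, a receptor that induces fatty acid oxidation, had the smallest p (-0.21, adjusted p = 0.324). None of these genes passed adjustment over all genes.

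Genes for ribosomes were set beside them as other large nuclear families. Of 77 tested mitochondrial ribosomal protein genes 54 were above 0, with a median of 0.040 and 3 at an unadjusted p under 0.05, all higher. Of 79 tested cytosolic ribosomal protein genes 76 were above 0, with a median of 0.17, and 39 had an unadjusted p under 0.05, all higher.

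Liver is a mixture of cells, and fewer cells of a type and less RNA per cell cannot be told apart in whole tissue. The 8 Kupffer cell markers all had a log2 fold change above 0 (median 0.43; 7 with an unadjusted p under 0.05), and their summed level was 101 to 132 CPM in WT and 128 to 220 CPM in LKO. Of 10 hepatocyte markers 2 were above 0 (median -0.15; 3 lower with an unadjusted p under 0.05). All 8 stellate cell markers and 7 of 8 endothelial markers were above 0, with medians of 0.20 and 0.071, with 1 unadjusted p under 0.05 in each list. Of 6 B cell markers 5 were above 0, and Ighm was lower and passed the test (log2 fold change -1.78). The part of cell composition in the members' values was not tested. All WT libraries have lower library numbers than all LKO libraries, so that an effect of library order and the genotype cannot be told apart.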

How the data were processed

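Per the labels, liver RNA of 6 WT and 6 Marchf6 LKO mice was sequenced, 1 library per mouse. The authors trimmed reads (Trimmomatic 0.36), aligned them (HISAT2 2.1.0; GRCm38.p6) and obtained gene counts from HTSeq 0.6.1 with Ensembl 93 annotation; strand setting and overlap mode are not given in the sources used here. The deposited table holds raw counts, used as deposited. Symbols, lengths and coordinates come from GENCODE M21 (GRCm38).

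The test was edgeR 4.0.16 on genes above 2 reads in 6 or more livers (TMM, quasi-likelihood, Benjamini-Hochberg over 17509 genes). Alternatives were limma voom (the study's method, run here with limma 3.58.1), DESeq2 1.42.0 and other settings. CPM are TMM-normalised, and group medians and ranges are over 6 livers. P-values set the difference between groups against the spread between mice, and depth was 14860414 to 22111926 counts. The fit was tested on simulated data.

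Members and lists were chosen with earlier results of these data known. Values by liver are given for the 2 members with the smallest p per complex and for 10 core subunits. The lists of partners, assembly factors, upstream genes and regulators name their smallest p. The ribosomal and cell marker lists name only calls past adjustment. Ndufa5, Ndufv2, Uqcrh, Atp5mpl, Ndufb6 and Cox6b2 were named after their values were seen. Copies were found with blastn 2.17.0 (97% identity, 75 bases). The replicate numbers in the library names were not treated as pairs.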

Additional observations from a re-analysis of the deposited data

Results flagged for a closer look

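In 56 groups of 6 livers (the members described liver by liver, the medians of the complexes and other lists, and the library totals), 2 held a liver whose gap to its nearest neighbour exceeded Dixon's 95% limit of 0.625 of the group's range; chance gives about 1 in 20 groups. For Ndufa12, LKO replicate 2 was lowest at 17.1 CPM, with a gap of 0.703 of the range. For the median deviation of complex IV, WT replicate 3 was highest at 0.14, with a gap of 0.705 of the range; WT replicate 3 was also the highest WT liver for 65 of the 80 members.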

How the results depend on the processing

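The number of members passing adjustment was 0 in every alternative tried, and their median log2 fold change stayed above 0, from 0.0087 (length and GC trend removed) to 0.11 (total counts without TMM factors). With total counts without TMM factors, 147 genes were called in all, 26 members had an unadjusted p under 0.05, all higher (32.5%, against 10.2% of all genes higher and 2.92% lower), the median of complex II turned to 0.0084, and Ndufs1, Ndufv1, Atp5a1 and Atp5b turned to 0.0021, 0.018, 0.048 and 0.040; the median of all genes was then 0.056. With the length and GC trend removed, 9 members had an unadjusted p under 0.05, the groups of 1 did not overlap, the median of complex V turned to -0.0016, and Uqcrfs1 and Cox5a turned to -0.0036 and -0.017. Upper-quartile normalization turned Atp5a1 to 0.0071 and Atp5b to 0.00064, and testing with no filter turned them to 0.0069 and 0.00028. All genes called numbered 75 in the report, 114 with no filter and 351 with DESeq2. The causes were not tested.

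Leaving out 1 liver at a time gave 38 to 132 genes called in all, 8 to 24 members with an unadjusted p under 0.05 and 3 to 7 members whose groups did not overlap. The lowest count of genes was without WT replicate 5 and the highest without WT replicate 3, which also gave the 24 (30%, against 6.84% of all genes higher) and the 7, when the groups of 429 of all genes did not overlap (228 with all livers). Atp5a1 ran from -0.034 to 0.020 and Atp5b from -0.036 to 0.0040, both lowest without WT replicate 6. Atp5a1 turned to 0.020 without WT replicate 3 and 0.011 without LKO replicate 2; Atp5b turned to 0.0014 without WT replicate 3, 0.00032 without LKO replicate 1 and 0.0040 without LKO replicate 2. Over all alternatives the lowest adjusted p of a member described by liver was 0.0693. A fit with the replicate block called 97 genes in all and 0 members, with a members' median of 0.050. In that fit 10 members (12.5%) had an unadjusted p under 0.05, all higher, against 6.8% of all genes higher and 6.54% lower. The labels do not say whether equal numbers mark paired mice, and such correlations cannot settle it. Deviations of same-numbered livers correlated at -0.065 to 0.135, and 2 of 6 WT livers correlated best with their own number. With 6 mice per group the median standard error of a member was 0.066 on the log2 scale, which limits the smallest difference that could be seen in a single member.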

Other observations

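The symbol rule leaves out 3 genes that also encode subunits: Ndufab1, Usmg5 and Ndufb1-ps. Their log2 fold changes were 0.09, 0.16 and 0.05, and 0 of the 3 passed the test. Another 10 rows had matching symbols but were annotated as other than protein-coding and were not counted as members. Of the 80 tested members, 42 had neither a near-identical copy nor exon bases shared with another gene. Among these 42, 32 had a log2 fold change above 0 and 8 an unadjusted p under 0.05, all higher in LKO liver, with a median of 0.055. Among the other 38 the numbers were 29, 6 and 0.035. Of all genes tested, 50.0% had a log2 fold change above 0, and 6.33% had such a p and were higher.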
